A study of Mus musculus with 15 samples.

Results

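Amino acid breakdown and creatine synthesis in the mouse kidney were described through 46 tubule enzymes, chosen by name and grouped by the amino acid they act on. Each enzyme is a row of the array table annotated with exactly 1 gene symbol, and for a gene with several rows the row of highest mean over all arrays was used. All 46 enzymes were measured, out of 22180 genes with 1 symbol. Aldh6a1, Got2 and Sardh each had a second row, of lower mean.

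The kidneys came from mice with a PRCC-TFE3 knock-in behind a loxP-stop-loxP cassette at the Rosa26 locus, a fusion gene of translocation renal cell carcinoma. The knock-in mice were crossed with a KSP-Cre line, in which Cre follows the promoter of kidney-specific cadherin in tubular epithelium. Cre removes the stop, so KSP-Cre+ kidneys can express the fusion, and KSP-Cre- kidneys carry the knock-in without Cre. Total RNA of 15 frozen kidneys, 1 kidney sample per array, was hybridised to Affymetrix Mouse Gene 2.0 ST arrays: 4 Cre- and 4 Cre+ at 4 months of age, and 3 Cre- and 4 Cre+ at 7 months. No group with KSP-Cre and no knock-in was analysed here, so effects of the fusion and of Cre itself cannot be told apart. The labels do not state the sex of the mice, nor whether the kidneys held tumours.

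The proximal tubule takes up nearly all filtered amino acids and holds most of the enzymes that break them down, in mitochondria, peroxisomes and the cytosol. The carbon skeletons feed the citric acid cycle and the making of glucose, and the nitrogen leaves as ammonia or is passed to other amino acids. The kidney also makes arginine from circulating citrulline, and it performs the first step of creatine synthesis, by which arginine and glycine become guanidinoacetate. TFE3 is a basic helix-loop-helix leucine zipper factor that binds E-box sequences, and HNF4A and the HNF1 factors are regulators of proximal tubule genes.

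RefSeq promoters of assembly GRCm38.p6, taken as the 250 bases before each annotated start, were found for 42 of the 46 enzymes (50 promoters), all but Asl, Arg2, Dbt and Cth. The E-box CACGTG, searched on both strands, was in 12.0% of these promoters, in Acy1, Ass1, Cbs, Dao, Ddo and Mccc2, and in 6.02% of all 32851 promoters of the same length. Agxt2 was the one enzyme whose promoters held the HNF4A letters CAAAGTCCA (4.0% of the 50 promoters against 0.384% of all), both times the same site seen from neighbouring starts. GTTAAT, one arm of the HNF1 element, was in the promoters of Bckdhb, Got2, Haao and Prodh2 (8.0% against 6.43%). The M-box letters TCATGTG were in 0.0% of the enzymes' promoters and 3.25% of all. None of these motifs contains another. A match describes the sequence only and is no measured site.

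Below are the windows of Acy1 and Mccc2, which hold an E-box at positions -8 and -9 (the motif's first base, with -1 the last base before the start), of Agxt2 with the HNF4A letters at -21, and of Haao with the HNF1 letters at -41, there read on the other strand. They are examples, picked among enzymes that fell in Cre+ kidneys at 7 months, and come from 4 different pathways. As given further on, 39 of the 46 enzymes fell then, most of them with none of these motifs found. Cbs, which holds an E-box, was not called. Whether a motif goes with the fall was not tested. The letters are 5′ to 3′ on the gene's strand and the capitals mark the motif. The windows are chr9:106438237-106438486 (minus strand), chr13:100015640-100015889 (minus strand), chr15:10358283-10358532 (plus strand) and chr17:83846791-83847040 (minus strand).
Acy1: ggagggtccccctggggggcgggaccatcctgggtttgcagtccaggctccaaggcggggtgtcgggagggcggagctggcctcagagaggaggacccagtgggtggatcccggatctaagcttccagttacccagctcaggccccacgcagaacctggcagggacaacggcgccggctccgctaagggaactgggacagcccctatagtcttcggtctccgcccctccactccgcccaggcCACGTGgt
Mccc2: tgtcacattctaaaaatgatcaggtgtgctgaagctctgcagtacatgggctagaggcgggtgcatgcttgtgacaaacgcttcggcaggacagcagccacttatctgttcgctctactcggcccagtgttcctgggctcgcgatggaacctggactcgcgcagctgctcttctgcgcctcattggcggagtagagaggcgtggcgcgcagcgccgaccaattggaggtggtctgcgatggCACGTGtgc
Agxt2: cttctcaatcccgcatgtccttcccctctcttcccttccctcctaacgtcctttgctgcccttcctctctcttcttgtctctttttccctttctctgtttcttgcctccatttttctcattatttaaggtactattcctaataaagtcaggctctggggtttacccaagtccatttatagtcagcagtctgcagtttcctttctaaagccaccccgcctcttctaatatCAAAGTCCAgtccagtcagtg
Haao: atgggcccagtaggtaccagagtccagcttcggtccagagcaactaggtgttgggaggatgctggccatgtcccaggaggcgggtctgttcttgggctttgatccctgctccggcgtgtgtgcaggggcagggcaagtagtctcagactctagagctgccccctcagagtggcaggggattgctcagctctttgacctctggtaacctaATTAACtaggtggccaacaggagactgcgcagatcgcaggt

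The deposited values are log2 RMA expression, between 1.04 and 13.12, with array medians of 4.40 to 4.55. Gpnmb, a glycoprotein gene known to respond to TFE3 and its relatives, was higher in all Cre+ than in all Cre- arrays, with log2 changes of 6.30 (SE 0.17, adjusted p = 1.48e-13) and 7.74 (SE 0.18, adjusted p = 3.22e-14) at 4 and 7 months. The mouse Tfe3 and Prcc rows passed the test at neither age (Tfe3 0.03 and 0.22, Prcc 0.09 and -0.24), and whether their probes match the knock-in transcript is not stated, so they check no label. Cdh16, the gene whose promoter drives this Cre, was -0.17 at 4 months, short of the test, and fell by 0.43 at 7 months (SE 0.13, adjusted p = 0.0256). The arrays formed 2 kinds by the mean of 3 Y-linked genes, 8 of them between 6.92 and 7.80 and 7 of them between 2.64 and 2.98, and every group held both kinds. Xist, an X-linked gene, split the arrays in the same way, at 3.35 to 3.93 in the 8 and 10.14 to 10.33 in the 7. Over all genes, 606 rose and 178 fell at 4 months and 2597 rose and 2394 fell at 7 months. After centring each array on its median the share of calls that were higher moved from 77.3% to 49.3% at 4 months and from 52.0% to 39.3% at 7 months, a scaling under which none of the enzymes' calls in either comparison changed direction.

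At 7 months, 39 of the 46 enzymes were lower in Cre+ than in Cre- kidneys, where 10.8% of all genes were called lower, and Arg2 alone was higher, where 11.7% of all genes were. The median change of the 46 enzymes was -1.05 on the log2 scale (all genes -0.04). Of the 46 enzymes, 26 were called lower by at least 2-fold, as were 450 of all 22180 genes. At 4 months, 9 enzymes were lower, against 0.803% of all genes, and 0 were higher, against 2.73% of all genes. The 9 were Gatm, Dmgdh, Aldh4a1, Ddo, Haao, Bckdhb, Ivd, Mccc1 and Acy1, and all 9 were also among the 39 that fell at 7 months. The median at 4 months was -0.31 (all genes 0.05), with 38 estimates below 0 (39.0% of all genes) and 25 enzymes under an unadjusted p of 0.05 (16.3% of all genes, in either direction). The test throughout was limma's moderated test on the log2 values of all 22180 genes over the 15 arrays, two-sided, with Benjamini-Hochberg adjustment over all genes and a threshold of 0.05. Errors of log2 changes are standard errors (SE).

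Among the 2835 genes with a mean of at least 7.77, the lower quartile of the 46 enzymes' means, 2.01% were called lower at 4 months and 29.2% at 7 months, against the 0.803% and 10.8% of all genes above. The values of Cre+ and Cre- arrays did not overlap, with Cre+ lower, for 18 enzymes at 4 months (3.16% of all genes) and for 37 at 7 months (15.2% of all genes). The mean over the 46 enzymes was 8.84 to 8.90 in the 4-month Cre- arrays, 8.49 to 8.71 in the 4-month Cre+ arrays, 8.83 to 8.86 in the 7-month Cre- arrays and 7.67 to 8.01 in the 7-month Cre+ arrays. Both Cre+ groups lay below both Cre- groups, with no overlap, and the 7-month Cre+ group lay below the 4-month one. Replicate 2 was the lowest of the 4 Cre+ arrays at 7 months for 28 of the 46 enzymes. Without it, 38 enzymes fell at 7 months.

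**Figure D1:**
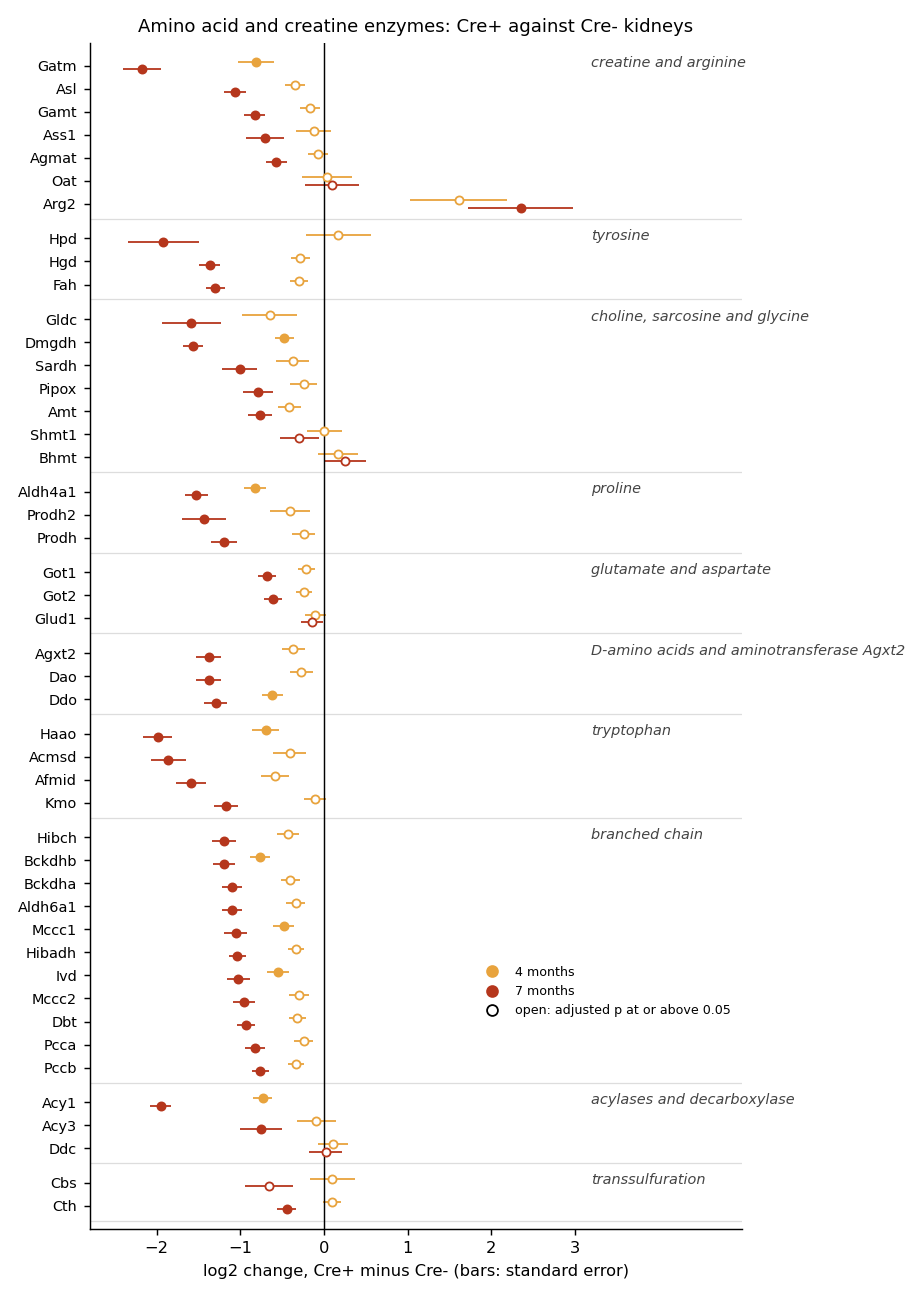
Log2 change (Cre+ minus Cre-, horizontal axis) of each of the 46 enzymes at 4 months (orange) and 7 months (red), grouped by amino acid, with bars of 1 standard error. Filled points passed the test (9 lower at 4 months, 39 lower and 1 higher at 7 months); open points did not.

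Markers of several cell types changed in the same arrays. Over all genes, 2.73% were called higher and 0.803% lower at 4 months, and 11.7% and 10.8% at 7 months. All 15 measured proximal tubule markers fell at 7 months (median -1.25), and 2 of 15 at 4 months (median -0.26). Their mean log2 value per array was 11.11 to 11.23 in 4-month Cre-, 10.79 to 11.03 in 4-month Cre+, 11.10 to 11.15 in 7-month Cre- and 9.62 to 10.15 in 7-month Cre+ arrays. Replicate 2 was again the lowest of the last group. Slc34a1, the phosphate transporter of the proximal tubule, fell by 0.38 (adjusted p = 0.043) and 1.34 (adjusted p = 1.84e-07), and Hnf4a was -0.39 (SE 0.10, adjusted p = 0.0517) at 4 months and fell by 1.25 at 7 months. Of 13 macrophage markers 4 rose at 4 months (median 0.57) and 12 at 7 months (median 1.30). Their mean was 5.52 to 6.15, 6.16 to 6.49, 5.64 to 5.96 and 6.99 to 7.31 in the same order of groups, so that both Cre+ groups lay above both Cre- groups. Of 6 fibroblast markers 3 rose at 4 months and 4 at 7 months, and of 6 lymphocyte markers 1 and 4. Some markers of other tubule segments and of the glomerulus fell too. All 5 of the distal convoluted tubule were lower at 7 months (median -0.83) and 2 of 5 at 4 months (median -0.60), where their median was below that of the proximal tubule markers. At 7 months 3 of 6 thick ascending limb, 4 of 5 intercalated cell and 3 of 4 podocyte markers were lower. Of 6 principal cell markers 0 were called lower at either age, which for so few genes is near the shares over all genes. At 7 months 4 of their 6 estimates were below 0 (lowest -0.64) and 2 above. Aqp3, a water channel gene, was the only 1 of the 6 called higher, at both ages (1.01 and 0.73). The array table gives no detection calls, so no marker can be called absent. In whole kidney, fewer cells of a type and less RNA per cell cannot be told apart, and the part of these cell types in the changes of the enzymes was not tested.

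**Figure D2:**
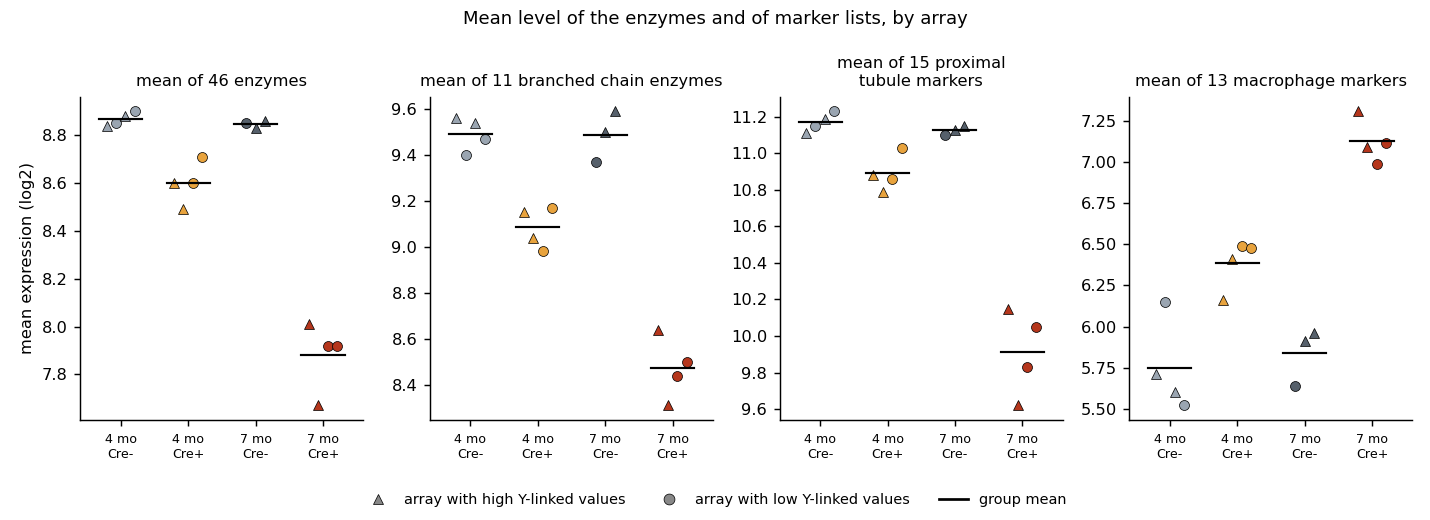
Mean log2 expression per array (vertical axes) of the 46 enzymes, the 11 branched chain enzymes, 15 proximal tubule markers and 13 macrophage markers in the 4 groups, with black lines at group means and triangles for arrays of high Y-linked values. The first 3 panels are lowest in 7-month Cre+ kidneys (the 46 enzymes at 7.67 to 8.01), and the macrophage panel is highest there (6.99 to 7.31).

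Of the creatine and arginine enzymes, 5 of 7 fell and Arg2 rose at 7 months, and Gatm alone fell at 4 months. Within each set below, values are listed in the order of the replicates. Gatm, the amidinotransferase that commits arginine and glycine to creatine, had the largest fall of the 46 enzymes at 7 months. Gatm measured 9.72, 9.77, 9.53 and 9.89 in Cre- and 8.80, 8.56, 9.11 and 9.18 in Cre+ kidneys at 4 months, and 10.26, 9.36 and 9.36 in Cre- and 7.92, 6.97, 7.41 and 7.62 in Cre+ kidneys at 7 months. Every Cre+ value lay below every Cre- value of its age, and the 7-month Cre+ arrays were the lowest of all. The change was -0.81 (SE 0.21, adjusted p = 0.0432) at 4 months and -2.18 (SE 0.23, adjusted p = 3.23e-06), or 4.52-fold, at 7 months. At 4 months the call was lost when any 1 of the 8 arrays of that age, or 7-month Cre+ replicate 3 or 4, was left out (adjusted p = 0.0531 to 0.148). Gamt, which methylates guanidinoacetate to creatine in the second step of the pathway, showed a smaller change. Its values were 7.48, 7.71, 7.84 and 7.40 in Cre- and 7.38, 7.24, 7.64 and 7.52 in Cre+ kidneys at 4 months, and 7.60, 7.71 and 7.67 in Cre- and 6.87, 6.63, 7.03 and 6.81 in Cre+ kidneys at 7 months. The 4-month groups overlapped and the 7-month groups did not. The change was -0.16 (SE 0.12, adjusted p = 0.56) at 4 months, short of the test, and -0.83 (SE 0.13, adjusted p = 1.57e-04) at 7 months.

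The arginine-making pair Ass1 and Asl, which turn citrulline and aspartate into arginine, both fell at 7 months. Asl read 9.55, 9.65, 9.60 and 9.58 in Cre- and 9.20, 8.94, 9.30 and 9.56 in Cre+ kidneys at 4 months, and 9.52, 9.49 and 9.26 in Cre- and 8.47, 8.13, 8.43 and 8.42 in Cre+ kidneys at 7 months. Its 7-month groups were well apart, and at 4 months 1 Cre+ array stood among the Cre- values. The log2 change was -0.35 (SE 0.12, adjusted p = 0.149) at 4 months and -1.06 (SE 0.13, adjusted p = 1.63e-05) at 7 months. For Ass1 the values were 5.37, 5.16, 5.64 and 5.46 in Cre- and 5.71, 5.21, 4.84 and 5.39 in Cre+ kidneys at 4 months, and 5.73, 5.20 and 4.76 in Cre- and 4.24, 4.30, 4.93 and 4.65 in Cre+ kidneys at 7 months. The groups overlapped at both ages, and the 7-month Cre+ values lay around the array medians of 4.40 to 4.55. The changes were -0.12 (SE 0.21, adjusted p = 0.833) and -0.70 (SE 0.23, adjusted p = 0.0339), and the 7-month call was lost without any 1 of Cre- replicates 1 and 2 and Cre+ replicates 1 and 2 of that age (adjusted p = 0.0792 to 0.195; -0.45 without Cre- replicate 1). Agmat, which hydrolyses agmatine, a decarboxylated arginine, to putrescine, passed the test at 7 months and not at 4 months. Agmat gave 6.23, 6.14, 6.11 and 6.50 in Cre- and 6.07, 6.46, 6.17 and 6.02 in Cre+ kidneys at 4 months, and 6.21, 6.31 and 6.22 in Cre- and 5.65, 5.78, 5.77 and 5.49 in Cre+ kidneys at 7 months. Its 7-month groups did not overlap. The changes were -0.07 (SE 0.12, adjusted p = 0.831) and -0.57 (SE 0.13, adjusted p = 0.00289). Oat, which moves the amino group of ornithine, was not called at either age, at 0.04 (SE 0.30, adjusted p = 0.972) and 0.10 (SE 0.33, adjusted p = 0.88), with groups that overlapped between 9.17 and 10.57.

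Arg2, the mitochondrial arginase that splits arginine into ornithine and urea, was the exception in direction. Arg2 measured 5.24, 7.53, 4.66 and 7.28 in Cre- and 7.39, 7.65, 8.11 and 7.99 in Cre+ kidneys at 4 months, and 7.48, 4.66 and 5.21 in Cre- and 8.09, 8.20, 8.04 and 8.21 in Cre+ kidneys at 7 months. The Cre+ arrays were alike, and the Cre- arrays fell into a high and a low kind at both ages. At 7 months every Cre+ value was above every Cre- value, and the change was 2.35 (SE 0.62, adjusted p = 0.0107), or 5.11-fold. At 4 months the change was 1.61 (SE 0.58, adjusted p = 0.158), short of the test. The call at 7 months was lost without Cre- replicate 2 (1.79, adjusted p = 0.0799) or Cre- replicate 3 (2.07, adjusted p = 0.0528). The relation of Arg2 to the Y-linked values is given further on.

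All 3 tyrosine enzymes fell at 7 months and 0 of 3 passed the test at 4 months, where 2 had an unadjusted p under 0.05. Hpd, Hgd and Fah act one after another in the path from tyrosine to fumarate and acetoacetate. Hgd measured 10.68, 10.59, 10.75 and 10.50 in Cre- and 10.28, 10.17, 10.43 and 10.52 in Cre+ kidneys at 4 months, and 10.84, 10.74 and 10.65 in Cre- and 9.62, 9.18, 9.28 and 9.42 in Cre+ kidneys at 7 months. At 7 months the Cre+ arrays stood over a log2 unit below the Cre- arrays, and at 4 months the groups met at their edges. The change was -0.28 (SE 0.11, adjusted p = 0.215) and then -1.37 (SE 0.12, adjusted p = 5.18e-07). Fah measured 9.61, 9.67, 9.84 and 9.40 in Cre- and 9.37, 9.26, 9.34 and 9.36 in Cre+ kidneys at 4 months, and 9.49, 9.83 and 9.78 in Cre- and 8.51, 8.42, 8.30 and 8.38 in Cre+ kidneys at 7 months. Its groups were separate at both ages, narrowly at 4 months. The changes were -0.30 (SE 0.11, adjusted p = 0.15) and -1.30 (SE 0.11, adjusted p = 4.75e-07). Hpd, the dioxygenase at the head of these steps, measured 9.19, 9.61, 8.84 and 10.26 in Cre- and 9.32, 9.12, 10.08 and 10.07 in Cre+ kidneys at 4 months, and 9.56, 9.46 and 9.12 in Cre- and 6.56, 6.68, 8.60 and 7.99 in Cre+ kidneys at 7 months. Within 7-month Cre+ kidneys Hpd was at 6.56 and 6.68 in the 2 arrays of high Y-linked values and at 8.60 and 7.99 in the 2 of low ones. All 4 were below the Cre- arrays. The change was 0.17 (SE 0.39, adjusted p = 0.881) at 4 months and -1.92 (SE 0.42, adjusted p = 0.00281) at 7 months. At 7 months it was -2.67 within arrays of high Y-linked values, and -1.26 within arrays of low ones, with a single Cre- array.

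Of the 7 enzymes of choline, sarcosine and glycine, 5 fell at 7 months and Dmgdh fell at both ages. Choline is oxidised to betaine, and Bhmt, Dmgdh and Sardh then strip its methyl groups in turn, ending in glycine. Dmgdh, the dimethylglycine dehydrogenase of mitochondria, measured 8.31, 8.21, 8.41 and 8.08 in Cre- and 7.85, 7.69, 7.69 and 7.89 in Cre+ kidneys at 4 months, and 8.28, 8.41 and 8.44 in Cre- and 7.10, 6.73, 6.71 and 6.70 in Cre+ kidneys at 7 months. The groups were separate at both ages, and at 7 months Cre+ replicate 1 was the highest of its group. The changes were -0.47 (SE 0.11, adjusted p = 0.0213) and -1.57 (SE 0.12, adjusted p = 9.96e-08), and the 4-month call was lost without any 1 of Cre- replicates 1 and 3 and Cre+ replicates 2 and 3 of that age (adjusted p = 0.0715 to 0.0868). Sardh, the next enzyme, measured 8.35, 8.13, 8.94 and 8.37 in Cre- and 8.42, 7.79, 7.91 and 8.17 in Cre+ kidneys at 4 months, and 8.19, 8.44 and 8.97 in Cre- and 7.79, 7.30, 7.70 and 7.31 in Cre+ kidneys at 7 months. Its 4-month groups overlapped and its 7-month groups did not. The changes were -0.38 (SE 0.20, adjusted p = 0.37) and -1.01 (SE 0.21, adjusted p = 0.00202). Pipox, a peroxisomal oxidase of sarcosine and pipecolic acid, measured 10.79, 10.40, 10.88 and 10.40 in Cre- and 10.56, 10.46, 10.23 and 10.25 in Cre+ kidneys at 4 months, and 10.36, 10.84 and 10.63 in Cre- and 10.20, 9.88, 9.81 and 9.41 in Cre+ kidneys at 7 months. Here too the 7-month groups were separate. The changes were -0.24 (SE 0.16, adjusted p = 0.506) and -0.79 (SE 0.18, adjusted p = 0.00321). Bhmt, which uses betaine to remethylate homocysteine, was called at neither age, at 0.17 (SE 0.24, adjusted p = 0.787) and 0.25 (SE 0.26, adjusted p = 0.543). Its mean over all arrays was 4.48, within the range of the array medians (4.40 to 4.55).

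Gldc and Amt are the P and T proteins of the glycine cleavage system. Gldc measured 7.88, 9.03, 8.19 and 8.70 in Cre- and 7.82, 7.25, 8.09 and 8.04 in Cre+ kidneys at 4 months, and 8.81, 8.21 and 8.13 in Cre- and 6.43, 5.90, 7.18 and 7.67 in Cre+ kidneys at 7 months. The lowest Cre+ arrays at 7 months were replicates 1 and 2, and all 4 lay below the Cre- arrays. The changes were -0.65 (SE 0.33, adjusted p = 0.34) and -1.59 (SE 0.35, adjusted p = 0.00292). Amt measured 8.23, 8.01, 8.27 and 8.41 in Cre- and 7.65, 7.82, 7.85 and 7.95 in Cre+ kidneys at 4 months, and 8.15, 8.11 and 8.27 in Cre- and 7.69, 7.06, 7.28 and 7.63 in Cre+ kidneys at 7 months. Its groups were separate at both ages. The changes were -0.41 (SE 0.13, adjusted p = 0.109) and -0.77 (SE 0.14, adjusted p = 7.56e-04). Shmt1, the cytosolic enzyme that exchanges serine and glycine, was called at neither age, at 0.01 (SE 0.21, adjusted p = 0.994) and -0.29 (SE 0.23, adjusted p = 0.418).

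All 3 proline enzymes fell at 7 months, and Aldh4a1 also at 4 months. Prodh oxidises proline and Prodh2 hydroxyproline, and Aldh4a1 oxidises the semialdehyde that each path then forms. Aldh4a1 measured 8.63, 8.50, 8.73 and 8.35 in Cre- and 8.03, 7.42, 7.76 and 7.71 in Cre+ kidneys at 4 months, and 8.62, 8.68 and 8.59 in Cre- and 7.37, 6.99, 7.09 and 6.97 in Cre+ kidneys at 7 months. The 3 levels, Cre-, 4-month Cre+ and 7-month Cre+, did not overlap. The changes were -0.82 (SE 0.13, adjusted p = 9.81e-04) and -1.52 (SE 0.14, adjusted p = 6.60e-07). Prodh measured 8.64, 8.55, 8.81 and 8.54 in Cre- and 8.55, 8.41, 8.26 and 8.34 in Cre+ kidneys at 4 months, and 8.24, 8.88 and 8.88 in Cre- and 7.43, 7.23, 7.68 and 7.54 in Cre+ kidneys at 7 months. The 4-month groups met at their edges and the 7-month groups were apart. The changes were -0.24 (SE 0.14, adjusted p = 0.425) and -1.20 (SE 0.15, adjusted p = 1.77e-05). Prodh2 measured 7.06, 7.79, 7.21 and 7.78 in Cre- and 6.96, 6.45, 7.37 and 7.43 in Cre+ kidneys at 4 months, and 7.91, 7.23 and 7.23 in Cre- and 6.16, 5.45, 6.25 and 6.23 in Cre+ kidneys at 7 months. Replicate 2 was well below the other 3 Cre+ arrays at 7 months. The changes were -0.41 (SE 0.24, adjusted p = 0.444) and -1.43 (SE 0.26, adjusted p = 6.27e-04).

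Of the 3 enzymes of glutamate and aspartate 2 fell at 7 months. Got1 and Got2, the cytosolic and mitochondrial aspartate aminotransferases, fell at 7 months by under 2-fold, and Glud1, the glutamate dehydrogenase that releases ammonia, was called at neither age. Got1 measured 10.07, 9.93, 9.95 and 10.09 in Cre- and 9.68, 9.77, 9.80 and 9.94 in Cre+ kidneys at 4 months, and 9.81, 9.86 and 10.03 in Cre- and 9.26, 8.97, 9.30 and 9.35 in Cre+ kidneys at 7 months. The changes were -0.21 (SE 0.10, adjusted p = 0.321) and -0.68 (SE 0.11, adjusted p = 2.19e-04). Got2 measured 10.06, 10.17, 10.26 and 10.14 in Cre- and 9.93, 9.80, 9.95 and 10 in Cre+ kidneys at 4 months, and 10.28, 10.12 and 10.06 in Cre- and 9.60, 9.33, 9.69 and 9.55 in Cre+ kidneys at 7 months. The 7-month groups of both aminotransferases were separate. For Got2 the changes were -0.24 (SE 0.10, adjusted p = 0.231) and -0.61 (SE 0.11, adjusted p = 3.78e-04). Glud1 measured 10.67, 10.68, 10.65 and 11.01 in Cre- and 10.45, 10.65, 10.61 and 10.90 in Cre+ kidneys at 4 months, and 10.57, 10.52 and 10.72 in Cre- and 10.52, 10.20, 10.52 and 10.60 in Cre+ kidneys at 7 months. Its groups overlapped at both ages, and the changes were -0.10 (SE 0.12, adjusted p = 0.746) and -0.14 (SE 0.13, adjusted p = 0.517).

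**Figure D3:**
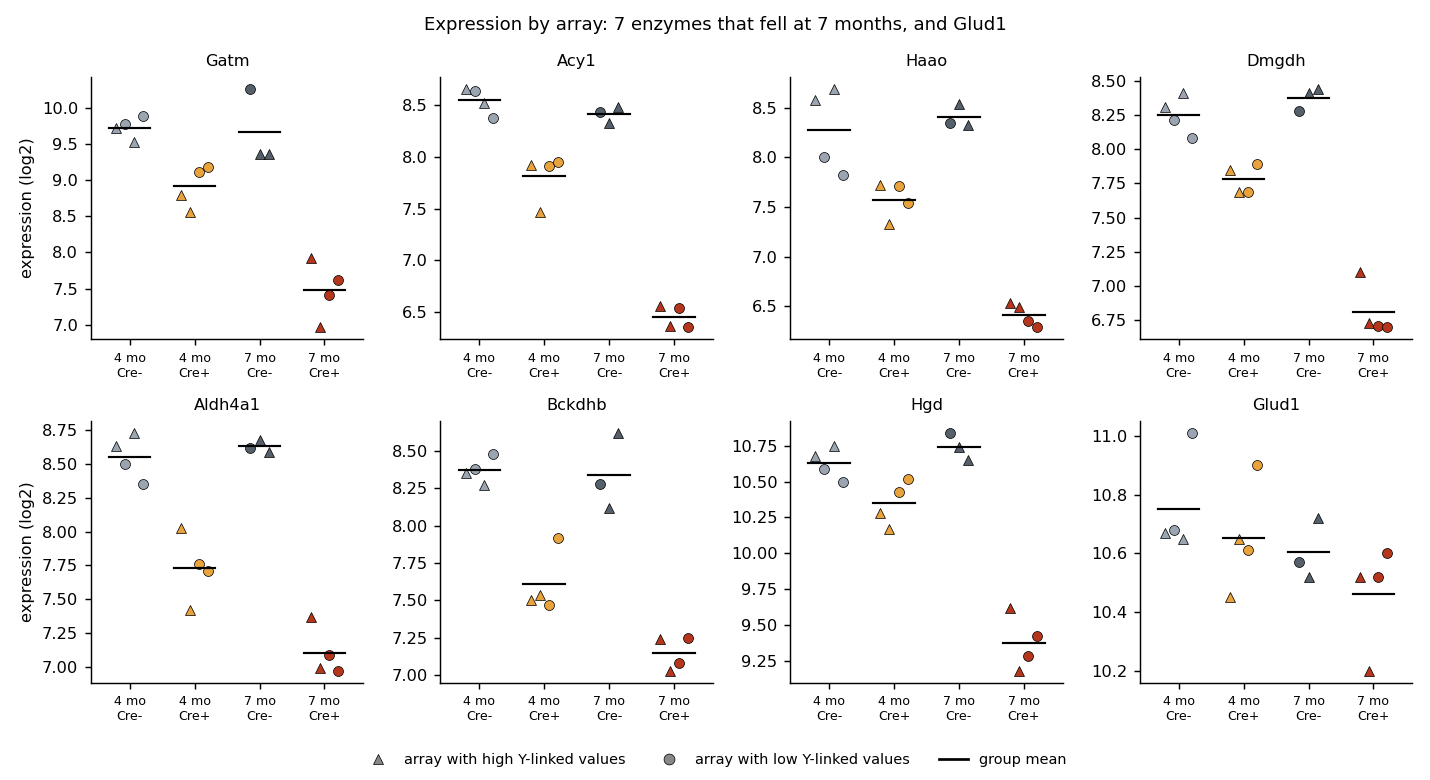
Log2 expression per array (vertical axes, a scale for each gene) of 7 enzymes that fell at 7 months and of Glud1, which was not called, in the 4 groups. Black lines are group means, and triangles and circles are arrays of high and low Y-linked values; Acy1, for example, lies at 8.32 to 8.48 in 7-month Cre- and 6.36 to 6.56 in 7-month Cre+ kidneys.

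Agxt2, Dao and Ddo all fell at 7 months, and Ddo also at 4 months. Dao and Ddo oxidise D-amino acids in peroxisomes, neutral ones and D-aspartate in turn, and Agxt2 is a mitochondrial aminotransferase that also acts on dimethylarginines. Ddo measured 7.11, 6.95, 7.06 and 7.11 in Cre- and 6.41, 6.41, 6.33 and 6.61 in Cre+ kidneys at 4 months, and 6.90, 7.03 and 7.18 in Cre- and 6.13, 5.60, 5.46 and 5.76 in Cre+ kidneys at 7 months. The groups were separate at both ages. The changes were -0.62 (SE 0.13, adjusted p = 0.00849) and -1.29 (SE 0.14, adjusted p = 3.01e-06). Dao measured 9.52, 9.53, 9.80 and 9.40 in Cre- and 9.42, 9.30, 9.24 and 9.21 in Cre+ kidneys at 4 months, and 9.43, 9.82 and 9.82 in Cre- and 8.71, 8.30, 8.11 and 8.13 in Cre+ kidneys at 7 months. At 4 months 1 Cre+ array stood among the Cre- values, and at 7 months there was a gap. The changes were -0.27 (SE 0.14, adjusted p = 0.346) and -1.38 (SE 0.15, adjusted p = 3.79e-06). Agxt2 measured 8.78, 8.48, 8.91 and 8.61 in Cre- and 8.46, 8.38, 8.19 and 8.30 in Cre+ kidneys at 4 months, and 8.72, 8.75 and 8.78 in Cre- and 7.77, 7.20, 7.42 and 7.09 in Cre+ kidneys at 7 months. Its groups were apart at both ages, by little at 4 months. The changes were -0.36 (SE 0.14, adjusted p = 0.174) and -1.38 (SE 0.15, adjusted p = 3.27e-06).

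All 4 tryptophan enzymes fell at 7 months, with the largest median of the groups of 3 or more enzymes (-1.73), and for all 4 the fall was larger at 7 than at 4 months by the test of that difference. For Afmid that difference was lost without any 1 of 10 arrays (adjusted p = 0.0639 to 0.124). Afmid opens formylkynurenine, Kmo hydroxylates kynurenine, Haao opens the ring of hydroxyanthranilate on the way to NAD, and Acmsd draws the product away from NAD synthesis. Haao measured 8.58, 8.0, 8.69 and 7.82 in Cre- and 7.72, 7.33, 7.71 and 7.54 in Cre+ kidneys at 4 months, and 8.35, 8.54 and 8.33 in Cre- and 6.53, 6.49, 6.35 and 6.29 in Cre+ kidneys at 7 months. The 4-month Cre- arrays formed 2 pairs, replicates 1 and 3 of high and replicates 2 and 4 of low Y-linked values, and all stayed above the Cre+ arrays. The changes were -0.70 (SE 0.16, adjusted p = 0.0231) and -1.99 (SE 0.18, adjusted p = 5.21e-07), or 3.97-fold at 7 months. At 4 months the change was -1.11 within arrays of high and -0.28 within arrays of low Y-linked values. The 4-month call of Haao was lost without any 1 of Cre- replicates 1 and 3 and Cre+ replicates 2 and 4 of that age (adjusted p = 0.0654 to 0.0935), and in the fit of only the groups compared (0.0794). Acmsd measured 9.01, 8.88, 9.09 and 8.98 in Cre- and 8.49, 8.05, 8.92 and 8.86 in Cre+ kidneys at 4 months, and 9.32, 9.07 and 9.02 in Cre- and 7.36, 6.78, 7.15 and 7.81 in Cre+ kidneys at 7 months. The 4-month groups overlapped through 1 Cre- array. The changes were -0.41 (SE 0.20, adjusted p = 0.317) and -1.86 (SE 0.21, adjusted p = 7.34e-06). Afmid measured 8.90, 8.30, 8.87 and 8.15 in Cre- and 8.14, 7.80, 8.01 and 7.91 in Cre+ kidneys at 4 months, and 8.30, 8.89 and 8.72 in Cre- and 7.17, 6.91, 7.10 and 7.0 in Cre+ kidneys at 7 months. Its 4-month groups were just apart. The changes were -0.59 (SE 0.17, adjusted p = 0.0624) and -1.59 (SE 0.18, adjusted p = 6.31e-06). Kmo measured 9.88, 9.80, 9.97 and 9.86 in Cre- and 9.73, 9.89, 9.69 and 9.80 in Cre+ kidneys at 4 months, and 9.51, 10.09 and 9.99 in Cre- and 9.01, 8.49, 8.53 and 8.76 in Cre+ kidneys at 7 months. Overlap at 4 months gave way to a gap at 7 months. The changes were -0.10 (SE 0.13, adjusted p = 0.77) and -1.17 (SE 0.14, adjusted p = 1.36e-05).

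The 11 branched chain enzymes moved together. All 11 fell at 7 months, between -0.76 and -1.20 with a median of -1.04, and in all 11 the groups of that age did not overlap. At 4 months 3 of 11 fell (Bckdhb, Ivd and Mccc1), all 11 estimates were below 0 (median -0.34), and all 11 had an unadjusted p under 0.05 (16.3% of all genes). The shared first step for leucine, isoleucine and valine, after loss of the amino group, is the branched chain ketoacid dehydrogenase, of which Bckdha and Bckdhb are the E1 subunits and Dbt the E2 core. Bckdhb measured 8.35, 8.38, 8.27 and 8.48 in Cre- and 7.50, 7.54, 7.47 and 7.92 in Cre+ kidneys at 4 months, and 8.28, 8.12 and 8.62 in Cre- and 7.24, 7.03, 7.08 and 7.25 in Cre+ kidneys at 7 months. At 4 months 3 of the Cre+ arrays were close together and replicate 4 stood above them, still below every Cre- array. The changes were -0.76 (SE 0.12, adjusted p = 0.00133) and -1.19 (SE 0.13, adjusted p = 5.68e-06). Bckdha measured 8.65, 8.63, 8.73 and 8.24 in Cre- and 8.24, 8.08, 8.16 and 8.17 in Cre+ kidneys at 4 months, and 8.56, 8.74 and 8.68 in Cre- and 7.67, 7.32, 7.69 and 7.57 in Cre+ kidneys at 7 months. The changes were -0.40 (SE 0.12, adjusted p = 0.0674) and -1.10 (SE 0.12, adjusted p = 6.34e-06). Its groups were separate at both ages, at 4 months only barely (lowest Cre- value 8.240, highest Cre+ value 8.237). Dbt measured 9.88, 9.75, 9.98 and 9.84 in Cre- and 9.68, 9.54, 9.36 and 9.61 in Cre+ kidneys at 4 months, and 9.74, 9.99 and 9.86 in Cre- and 9.14, 8.81, 8.86 and 8.91 in Cre+ kidneys at 7 months. Its groups too were separate at both ages, with changes of -0.32 (SE 0.10, adjusted p = 0.115) and -0.93 (SE 0.11, adjusted p = 1.21e-05).

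Ivd and the 2 subunits of methylcrotonyl-CoA carboxylase, Mccc1 and Mccc2, belong to the breakdown of leucine. Ivd measured 9.71, 9.22, 9.57 and 9.52 in Cre- and 9.30, 8.86, 8.78 and 8.87 in Cre+ kidneys at 4 months, and 9.23, 9.46 and 9.49 in Cre- and 8.52, 8.27, 8.36 and 8.33 in Cre+ kidneys at 7 months. The 4-month groups overlapped by 1 array, and the changes were -0.55 (SE 0.13, adjusted p = 0.0218) and -1.02 (SE 0.14, adjusted p = 3.66e-05). The 4-month call of Ivd was lost without any 1 of Cre- replicates 1 and 3 and Cre+ replicates 2, 3 and 4 of that age (adjusted p = 0.0685 to 0.0887), and in the fit of only the groups compared (0.0664). Mccc1 measured 9.40, 9.07, 9.33 and 9.16 in Cre- and 8.87, 8.69, 8.61 and 8.86 in Cre+ kidneys at 4 months, and 8.87, 9.25 and 9.39 in Cre- and 8.30, 7.89, 8.04 and 8.22 in Cre+ kidneys at 7 months. Its groups were separate at both ages, with changes of -0.48 (SE 0.13, adjusted p = 0.0459) and -1.06 (SE 0.14, adjusted p = 2.55e-05). The 4-month call of Mccc1 was lost without any 1 of 4-month Cre- replicates 1, 3 and 4 or Cre+ replicates 2, 3 and 4, or of 7-month Cre- replicate 2 or Cre+ replicates 3 and 4 (adjusted p = 0.0563 to 0.15). Mccc2 measured 8.61, 8.74, 8.56 and 9.05 in Cre- and 8.40, 8.57, 8.26 and 8.55 in Cre+ kidneys at 4 months, and 8.82, 8.56 and 8.67 in Cre- and 7.81, 7.52, 7.71 and 7.85 in Cre+ kidneys at 7 months. At 4 months the groups overlapped, and the changes were -0.29 (SE 0.12, adjusted p = 0.23) and -0.96 (SE 0.13, adjusted p = 3.91e-05).

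Hibch, Hibadh and Aldh6a1 are successive steps of valine breakdown, and Pcca and Pccb are the subunits of propionyl-CoA carboxylase, which receives the carbon of valine and isoleucine. Hibch measured 7.66, 7.27, 7.55 and 7.11 in Cre- and 7.16, 6.73, 6.91 and 7.06 in Cre+ kidneys at 4 months, and 7.35, 7.54 and 7.60 in Cre- and 6.50, 6.10, 6.30 and 6.31 in Cre+ kidneys at 7 months. The changes were -0.43 (SE 0.13, adjusted p = 0.0912) and -1.20 (SE 0.14, adjusted p = 1.16e-05). Hibadh measured 10.78, 10.70, 10.90 and 10.73 in Cre- and 10.45, 10.46, 10.37 and 10.48 in Cre+ kidneys at 4 months, and 10.77, 10.91 and 10.91 in Cre- and 10.04, 9.76, 9.71 and 9.81 in Cre+ kidneys at 7 months. Hibadh was separate at both ages and among the tightest of the 46, with changes of -0.34 (SE 0.09, adjusted p = 0.0551) and -1.04 (SE 0.10, adjusted p = 1.24e-06). Aldh6a1 measured 11.84, 11.67, 11.93 and 11.75 in Cre- and 11.53, 11.42, 11.43 and 11.47 in Cre+ kidneys at 4 months, and 11.56, 11.81 and 11.90 in Cre- and 10.90, 10.38, 10.70 and 10.64 in Cre+ kidneys at 7 months. It was separate at both ages as well, and its changes were -0.34 (SE 0.11, adjusted p = 0.131) and -1.10 (SE 0.12, adjusted p = 5.65e-06). The second row of Aldh6a1 had group means of 5.87 and 5.38 at 4 months and 6.08 and 4.78 at 7 months, Cre- first. In the same order, the second row of Got2 had 3.24 and 3.31, then 3.51 and 3.46. That of Sardh had 2.88 and 3.02, then 2.91 and 2.78. The second rows of Got2 and Sardh lay below the array medians of 4.40 to 4.55 and did not repeat the 7-month falls of the rows used. Pcca measured 10.25, 9.94, 10.14 and 10.20 in Cre- and 9.84, 9.91, 9.79 and 10.01 in Cre+ kidneys at 4 months, and 10.04, 10.19 and 10.36 in Cre- and 9.57, 9.34, 9.16 and 9.41 in Cre+ kidneys at 7 months. The changes of Pcca were -0.24 (SE 0.11, adjusted p = 0.278) and -0.82 (SE 0.12, adjusted p = 6.80e-05). Pccb measured 10, 10.01, 10.04 and 10.14 in Cre- and 9.69, 9.68, 9.62 and 9.86 in Cre+ kidneys at 4 months, and 9.81, 9.92 and 10.07 in Cre- and 9.30, 8.99, 9.21 and 9.18 in Cre+ kidneys at 7 months. Pccb was separate at both ages, with changes of -0.33 (SE 0.10, adjusted p = 0.0707) and -0.76 (SE 0.10, adjusted p = 3.97e-05).

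Acy1, the cytosolic aminoacylase that frees amino acids from their N-acetyl forms, had the smallest adjusted p of the 46 enzymes at 7 months. Acy1 measured 8.65, 8.63, 8.52 and 8.37 in Cre- and 7.92, 7.47, 7.91 and 7.95 in Cre+ kidneys at 4 months, and 8.43, 8.32 and 8.48 in Cre- and 6.56, 6.37, 6.54 and 6.36 in Cre+ kidneys at 7 months. The Cre+ arrays at 7 months lay close together and far below the rest. The changes were -0.73 (SE 0.11, adjusted p = 9.61e-04) and -1.95 (SE 0.12, adjusted p = 1.12e-08), or 3.87-fold at 7 months. Acy3, an aminoacylase that acts on mercapturic acids, measured 12.48, 11.82, 12.60 and 11.95 in Cre- and 12.27, 12.28, 11.89 and 12.05 in Cre+ kidneys at 4 months, and 11.77, 12.55 and 12.66 in Cre- and 12.05, 11.80, 11 and 11.46 in Cre+ kidneys at 7 months. Its groups overlapped at both ages. The changes were -0.09 (SE 0.23, adjusted p = 0.892) and -0.75 (SE 0.25, adjusted p = 0.0403). The 7-month call was lost without any 1 of Cre- replicates 2 and 3 and Cre+ replicates 3 and 4 of that age (adjusted p = 0.0867 to 0.169). It was also lost after quantile normalization (-0.56, adjusted p = 0.151). With the Y-linked mean as a term in the limma fit, the 7-month change of Acy3 was -0.65 (SE 0.13, adjusted p = 0.00108). Ddc, which decarboxylates aromatic amino acids and makes renal dopamine, was called at neither age, at 0.11 (SE 0.18, adjusted p = 0.831) and 0.02 (SE 0.20, adjusted p = 0.957).

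Cbs and Cth take homocysteine to cysteine. Cth measured 10.33, 10.19, 10.19 and 10.38 in Cre- and 10.29, 10.55, 10.24 and 10.41 in Cre+ kidneys at 4 months, and 10.26, 10.17 and 10.41 in Cre- and 10.05, 9.69, 9.78 and 9.83 in Cre+ kidneys at 7 months. The 7-month groups were separate, and the changes were 0.10 (SE 0.10, adjusted p = 0.711) and -0.45 (SE 0.11, adjusted p = 0.00774). After quantile normalization the 7-month change of Cth was -0.21, with an adjusted p of 0.145. Cbs measured 8.49, 7.53, 8.64 and 7.33 in Cre- and 8.26, 8.20, 8.01 and 7.92 in Cre+ kidneys at 4 months, and 7.43, 8.54 and 8.44 in Cre- and 7.57, 7.54, 7.51 and 7.30 in Cre+ kidneys at 7 months. The Cre- arrays formed a high and a low kind at both ages, the groups overlapped, and the test was passed at neither age, at 0.10 (SE 0.27, adjusted p = 0.899) and -0.66 (SE 0.29, adjusted p = 0.119). With the Y-linked mean as a term in the limma fit, Cbs was called lower at 7 months (-0.56, SE 0.19, adjusted p = 0.0397). Its 7-month change was -0.93 within arrays of high Y-linked values (SE 0.15, adjusted p = 0.00115). Within arrays of low ones, with a single Cre- array, it was -0.03.

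Whether the Cre+ change differed between the ages was tested as the difference of the 2 changes. It passed for 17 of the 46 enzymes, all with a larger fall at 7 months (1.18% of all genes were called lower), and for 0 in the other direction (0.96% of all genes were called higher). In 43 of the 46 enzymes the estimate was lower at 7 than at 4 months (61.6% of all genes), with a median difference of -0.67 (all genes -0.08). The 17 enzymes included all 4 of tryptophan, Hgd and Fah of tyrosine, Agxt2 and Dao, 4 of the 11 branched chain enzymes, Gatm, Asl, Dmgdh, Prodh and Acy1. The largest called differences were -1.45 (SE 0.29, adjusted p = 0.0156) for Acmsd, -1.36 (SE 0.31, adjusted p = 0.0319) for Gatm, -1.29 (SE 0.24, adjusted p = 0.0104) for Haao and -1.22 (SE 0.17, adjusted p = 0.00273) for Acy1. Hpd had a larger estimate with a wider error and did not pass (-2.10, SE 0.58, adjusted p = 0.0718). With 1 array left out, the call was lost for Asl without any 1 of 13 arrays, for Bckdha and Dbt of 11, for Afmid of 10, for Gatm of 9, and for Prodh and Aldh6a1 of 4. A plain linear model also lost Acmsd (adjusted p = 0.0689). After centring, the share of higher calls over all genes in this comparison moved from 44.8% to 54.0%, and after quantile normalization to 56.5%.

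With age, no enzyme was called in Cre- kidneys. Between 7 and 4 months, 0 of the 46 enzymes were called in Cre- mice by limma, 0 had an unadjusted p under 0.05, and the median change was -0.01. Over all genes 0.00451% were called higher and 0.0% lower there. In Cre+ kidneys, 35 of the 46 enzymes were lower at 7 than at 4 months (6.71% of all genes) and 0 were higher (4.12% of all genes), with a median of -0.62 (all genes -0.09). This comparison uses the same Cre+ arrays as the comparisons above and is no separate evidence. Its largest falls were -2.19 (SE 0.39, adjusted p = 0.00171) for Hpd, -1.43 (SE 0.21, adjusted p = 3.93e-04) for Gatm, -1.35 (SE 0.11, adjusted p = 6.43e-06) for Acy1 and -1.31 (SE 0.20, adjusted p = 4.48e-04) for Acmsd. The share of higher calls over all genes was 38.1%, and it was 46.1% after centring and 54.5% after quantile normalization.

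Part of the spread within groups went with the Y-linked genes. In a fit with the 4 group means and 1 term for arrays of high against low Y-linked values, 3 enzymes were higher in the high arrays (1.19% of all genes) and 7 were lower (2.22% of all genes). Higher were Cbs (0.61, SE 0.13, adjusted p = 0.0106), Acy3 (0.60, SE 0.09, adjusted p = 8.74e-04) and Pipox (0.38, SE 0.08, adjusted p = 0.0109). Lower were Arg2 (-1.27, SE 0.29, adjusted p = 0.0217), Hpd (-0.99, SE 0.16, adjusted p = 0.00161), Oat (-0.84, SE 0.09, adjusted p = 3.43e-05), Gldc (-0.83, SE 0.13, adjusted p = 0.00115), Prodh2 (-0.61, SE 0.10, adjusted p = 0.00204), Shmt1 (-0.53, SE 0.09, adjusted p = 0.00241) and Ddc (-0.43, SE 0.09, adjusted p = 0.00711). Oat, which was not called in the Cre comparisons, had values of 9.17 to 9.68 in the 8 high arrays and 10.06 to 10.57 in the 7 low arrays, with no overlap. None of the 11 branched chain, 4 tryptophan, or 3 glutamate and aspartate enzymes passed this test, which for so few genes is near the shares over all genes. An unadjusted limma p under 0.05 was found for 1 of the 11, 3 of the 4 and 0 of the 3, and for 15.2% of all genes. Over all genes the share of higher calls was 34.8%, and it was 56.9% after centring and 50.3% after quantile normalization.

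**Figure D4:**
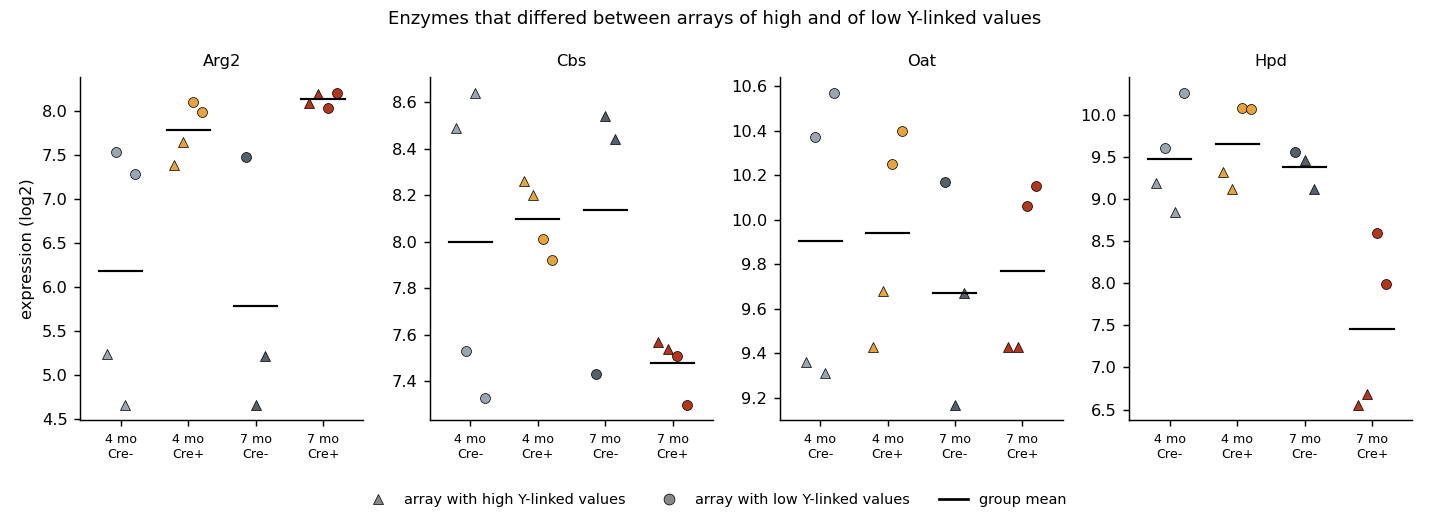
Log2 expression per array (vertical axes, a scale for each gene) of Arg2, Cbs, Oat and Hpd in the 4 groups, with triangles for arrays of high and circles for arrays of low Y-linked values and black lines at group means. In Cre- kidneys Arg2 is at 4.66 to 5.24 in the triangles and 7.28 to 7.53 in the circles, and in 7-month Cre+ kidneys all 4 arrays lie at 8.04 to 8.21.

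Arg2 was the 1 enzyme for which the test of a different Cre+ change in the 2 kinds of array was passed. In Cre- kidneys it stood at 5.24 and 4.66 (4 months) and 4.66 and 5.21 (7 months) in arrays of high Y-linked values, and at 7.53 and 7.28 and at 7.48 in arrays of low ones. In Cre+ kidneys the 2 kinds were within a log2 unit, at 7.39 to 8.11 at 4 months and 8.04 to 8.21 at 7 months. Within the high arrays Arg2 rose by 2.57 (SE 0.23, adjusted p = 8.38e-05) at 4 months and 3.21 (SE 0.23, adjusted p = 5.31e-06) at 7 months. Within the low arrays the change was 0.65 at both ages, with an adjusted p of 0.0635 at 4 months, and no test is given at 7 months, where a single Cre- array was of the low kind. The difference of the changes, high minus low, was 1.92 (SE 0.295, adjusted p = 0.0345) at 4 months and 2.56 (SE 0.33, adjusted p = 0.0106) at 7 months, in a fit with 8 means that was chosen after seeing the data. At 7 months the fit assumes that the single low Cre- array varies as the other groups do. A plain linear model gave adjusted p-values of 0.245 and 0.258, with 0 enzymes called. By limma's moderated test in the fit with 8 means, 0.0586% of all genes were called at 4 months and 0.0541% at 7 months. The 4-month call was lost without any 1 of Cre- replicates 2, 3 and 4, any of the 4 Cre+ arrays of that age or 7-month Cre+ replicates 3 and 4, and the 7-month call without Cre+ replicate 2. Cbs had the opposite sign and did not pass (-0.86, adjusted p = 0.13, and -0.90, adjusted p = 0.217). Its Cre- values were 8.49 and 8.64 (4 months) and 8.54 and 8.44 (7 months) in high arrays and 7.53, 7.33 and 7.43 in low ones, and its 7-month Cre+ values were 7.57 and 7.54 in high and 7.51 and 7.30 in low arrays.

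Of 66 other measured enzymes of amino acid and one-carbon metabolism, 38 fell at 7 months (57.6%, against 10.8% of all genes) and 4 rose (6.06%, against 11.7%), with a median of -0.62. At 4 months 5 fell (7.58%, against 0.803%) and 2 rose (3.03%, against 2.73%), with a median of -0.17. The largest falls at 7 months were -1.67 (SE 0.21, adjusted p = 1.49e-05) for Shmt2, the mitochondrial counterpart of Shmt1, -1.58 (SE 0.15, adjusted p = 1.36e-06) for Grhpr, which reduces glyoxylate and hydroxypyruvate, -1.42 (SE 0.15, adjusted p = 2.87e-06) for Aspa, which cleaves N-acetylaspartate, -1.41 (SE 0.35, adjusted p = 0.0074) for Odc1, which starts polyamine synthesis from ornithine, and -1.38 (SE 0.20, adjusted p = 6.74e-05) for Aass, which starts lysine breakdown. The 5 that fell at 4 months were Shmt2 (-0.78), Chdh (-0.58), Abat (-0.51), Mmut (-0.45) and Pcbd1 (-0.43). Of the enzymes that rose, Glul makes glutamine from glutamate and ammonia, Aldh18a1 makes the precursor of proline and ornithine from glutamate, Asns makes asparagine, and Asrgl1 is an asparaginase. Glul measured 10.35, 10.53, 10.41 and 10.64 in Cre- and 11.31, 11.29, 11.46 and 11.41 in Cre+ kidneys at 4 months, and 10.71, 10.48 and 10.49 in Cre- and 11.13, 11.13, 11.19 and 11.21 in Cre+ kidneys at 7 months. Every Cre+ array was above every Cre- array of its age. The rises were 0.88 (SE 0.09, adjusted p = 1.51e-05) and 0.60 (SE 0.10, adjusted p = 2.81e-04). Aldh18a1 measured 4.37, 4.56, 4.42 and 4.65 in Cre- and 4.85, 5.10, 5.12 and 5.32 in Cre+ kidneys at 4 months, and 4.77, 4.60 and 4.48 in Cre- and 5.19, 5.63, 5.37 and 5.86 in Cre+ kidneys at 7 months. The rises were 0.59 (SE 0.14, adjusted p = 0.0218) and 0.89 (SE 0.15, adjusted p = 2.83e-04), again with no overlap. Asns was 0.38 (SE 0.15, adjusted p = 0.214) at 4 months and rose by 0.62 (SE 0.16, adjusted p = 0.0102) at 7 months, and Asrgl1 was 0.25 (SE 0.16, adjusted p = 0.473) and rose by 0.55 (SE 0.17, adjusted p = 0.0261).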

How the data were processed

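Kidney RNA of 15 mice was measured on Affymetrix Mouse Gene 2.0 ST arrays. The authors deposited 1 log2 expression value per transcript cluster and array, made by RMA in Partek 6.6 per the submitters' processing notes. The table holds 41345 entries: 23521 with exactly 1 gene symbol, 1814 with several and 16010 with none, the last 2 kinds left out. Symbols were updated through Entrez identifiers for 23328 entries, and 193 kept the platform's symbol. For each of 22180 genes the entry of highest mean was used. RMA shrinks changes of dim probes, levels of different probes cannot be compared, and precision is limited by 3 or 4 arrays a group.

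Groups came from the sample titles. Python 3.11.15 and R 4.3.3 with limma 3.58.1 (lmFit, eBayes) fitted 4 group means over all 15 arrays, with p-values adjusted by Benjamini-Hochberg over all genes and a threshold of 0.05. Arrays were split into high and low Y-linked values at the widest gap in the mean of 3 Y-linked genes. The steps were tested on simulated data. The enzymes, marker lists, motifs and comparisons were chosen with earlier results of these data known. Every enzyme may be named, those past the test with full values, and of other amino acid enzymes up to 5 rising and 5 falling at each age. Alternatives were a filter on dim genes, quantile normalization, median centring, a trend with robust variance, a plain linear model, only the groups compared, array weights, a block for the replicate number, a Y-linked term, arrays of 1 Y-linked kind, the mean of a gene's entries, and leaving out each array.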

Additional observations from a re-analysis of the deposited data

Results flagged for a closer look

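A single array stood apart from the other 3 of its group (the gap to its neighbour exceeded Dixon's 95% limit) for 6 enzymes, in 6 of the 138 groups of 4 arrays examined. Chance gives about 1 in 20 groups. At 7 months in Cre+ kidneys these were Asl in replicate 2 at 8.13 (the others 8.42 to 8.47), Prodh2 in replicate 2 at 5.45 (6.16 to 6.25) and Dmgdh in replicate 1 at 7.10 (6.70 to 6.73). At 4 months they were Bckdhb in Cre+ replicate 4 at 7.92 (7.47 to 7.54), Acy1 in Cre+ replicate 2 at 7.47 (7.91 to 7.95) and Glud1 in Cre- replicate 4 at 11.01 (10.65 to 10.68).

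The Cre+ change differed between the ages, by limma's test of the difference, for 17 enzymes, all with the larger fall at 7 months. The differences, 7 minus 4 months on the log2 scale, were -1.36 for Gatm and -0.71 for Asl in the creatine and arginine group, -1.09 for Hgd and -1.0 for Fah in tyrosine breakdown, -1.09 for Dmgdh, and -0.95 for Prodh. They were -1.01 for Agxt2 and -1.11 for Dao. In tryptophan breakdown they were -1.29 for Haao, -1.07 for Kmo, -1.45 for Acmsd and -1.0 for Afmid. Among the branched chain enzymes they were -0.70 for Bckdha, -0.61 for Dbt, -0.70 for Hibadh and -0.76 for Aldh6a1, and for Acy1 the difference was -1.22. Adjusted p-values ran from 0.00273 for Acy1 to 0.0488 for Asl, and 7 of the 17 calls were lost when single arrays were left out.

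The estimated Cre+ change of Arg2 was larger in arrays of high than of low Y-linked values, by 1.92 at 4 months and 2.56 at 7 months, and passed limma's test of that difference in a fit chosen after seeing the data. The 7-month value rests on a single low Cre- array. The 4-month call was lost without any 1 of 9 arrays (adjusted p = 0.0508 to 0.148), the 7-month call without Cre+ replicate 2 (0.0733), and both calls by a plain linear model (0.245 and 0.258).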

How the results depend on the processing

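Of the enzymes called in the standard analysis, 4 of 9 at 4 months, 36 of 40 at 7 months and 9 of 17 in the difference between ages kept the call under every alternative other than the split by Y-linked kind. The enzymes that lost it at least once were Gatm, Dmgdh, Haao, Ivd and Mccc1 at 4 months, Ass1, Arg2, Acy3 and Cth at 7 months, and Gatm, Asl, Prodh, Acmsd, Afmid, Bckdha, Dbt and Aldh6a1 in the difference. In arrays of 1 Y-linked kind, 8 of the 9 calls at 4 months were lost in at least 1 of the 2 kinds. In high arrays Cth lost its call at 7 months (limma adjusted p = 0.14), and all calls in the difference except that of Prodh were lost. Calls in low arrays at 7 months and in the difference are not counted, as a single 7-month Cre- array was of the low kind. No call changed sign in any alternative, and sign changes of estimates called in neither setting were not counted. Of the 9 enzymes lower at 4 months, the count became 18 after median centring, 14 with array weights, 5 in arrays of high and 2 in arrays of low Y-linked values, and 4 to 10 with 1 array left out (4 without Cre- replicate 1, Cre- replicate 3 or Cre+ replicate 2, and 5 without Cre+ replicate 3 or 4, all of 4 months). Higher at 4 months, 0 became 1 (Arg2) with a Y-linked term and in high arrays. Higher at 7 months, 1 became 0 to 1 with 1 array left out, and lower at 7 months, 39 became 37 to 39. The count of enzymes with a larger fall at 7 months, taken over all the enzymes, was 17 in the standard analysis. It became 10 by a plain linear model and 2 in high arrays. With 1 array left out it became 10 to 20 (10 without 4-month Cre- replicate 2 or Cre+ replicate 1, and 11 without 7-month Cre- replicate 2). The difference between ages could not be fitted with only the groups compared. The count of enzymes lower at 7 than at 4 months in Cre+ kidneys, 35, became 20 in high and 23 in low arrays. For the Y-linked difference of the Cre+ change, chosen after seeing the data, 1 enzyme became 0 by a plain linear model at both ages, and 0 to 1 with 1 array left out. The splits use 7 or 8 arrays, and the cause of the other moves was not tested. Deviations from the group means had correlations of -0.469 to 0.298 between same-numbered samples of different groups. Between differently numbered samples they were -0.472 to 0.55. The Y-linked split was not removed first, so these values cannot decide whether the numbers pair the mice. With the number as a replicate block, 8, 38, 16 and 36 enzymes were lower at 4 months, at 7 months, in the difference and with age in Cre+ kidneys.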
